A study of Mus musculus with 4 samples.

Results

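Genes of MHC class I antigen presentation were followed in regulatory T cells (Treg) from mice treated with an agonistic anti-DR3 antibody or a control antibody. DR3 (death receptor 3) is a costimulatory receptor of T cells. The set was defined by name, with earlier results of these data known. It held 9 genes: H2-K1, H2-D1, B2m, Tap1, Tap2, Tapbp, Tapbpl, Nlrc5 and Erap1. A gene was measured where the platform annotation gave a probe set that symbol and no other, and its probe set with the highest mean over the arrays was used. This left 8 of the 9, out of 22180 genes with such a probe set, and all 8 were bright enough to be among the 12114 genes tested. For H2-D1 the annotation gave only a probe set that also lists H2-Q2.

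Treg from mice injected intraperitoneally with anti-DR3 were set against Treg from mice injected with the isotype control antibody, with 2 arrays in each group. All 4 samples came from the strain labelled Foxp3Luci-DTR-4(B6 Albino), so both groups share that background, and cells were sorted as CD4+ Foxp3+ GFP+ at 4 days. The labels give no age, sex or tissue, and do not say whether arrays of a group came from separate or pooled mice, so the p-values below describe a spread between arrays that may be only technical. The comparison asks which transcripts of Treg differ after DR3 has been stimulated in the animal.

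MHC class I molecules show peptides from inside the cell to CD8 T cells and are made by nearly all nucleated cells. A heavy chain, encoded by H2-K1 or H2-D1, pairs with beta-2 microglobulin, the product of B2m. The proteasome makes peptides, the transporter of Tap1 and Tap2 pumps them into the endoplasmic reticulum, aminopeptidases such as Erap1 trim them there, and tapasin (Tapbp) and its relative TAPBPR (Tapbpl) help to select those that bind. The transcription of many of these genes is raised by interferons, and Nlrc5 is a transactivator that works chiefly at class I promoters.

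After anti-DR3 the transporter gene Tap1 rose 1.38-fold, by 0.47 ± 0.083 on the log2 scale (SE, n = 2 arrays per group, limma adjusted p = 0.0366). It was the only one of the 8 measured genes past an adjusted p of 0.05, or 1 of 8, where 4.49% of all genes tested rose by the same rule. Under an unadjusted p of 0.05 lay 4 of the 8, against 26.1% of all genes tested. Both anti-DR3 arrays were above both control antibody arrays for 8 of 8 genes, where the same held for 31.6% of all genes tested. The median log2 difference of the 8 was 0.27, against 0.01 over all genes tested, and the single differences ran from 0.09 for Erap1 to 0.47 for Tap1. The 8 genes were read on the same 4 arrays, so these counts are not 8 independent observations. They were also chosen with earlier results of these data known, so the contrasts with all genes are not a test of the set. The lower end of this order was held by the chains of the class I molecule and by Erap1, and the upper end by the transporter and the tapasin genes, though the 95% intervals of all 8 overlap.

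**Figure D1:**
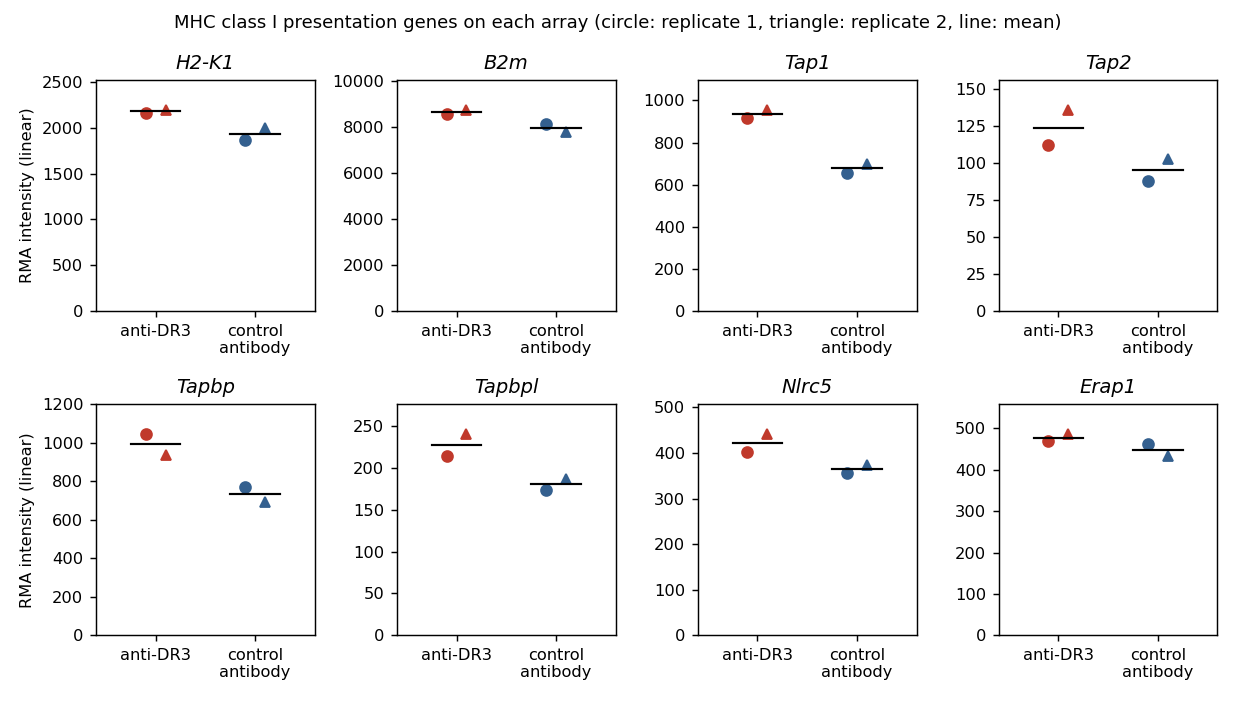
RMA intensity on a linear scale (vertical axes, from 0) of the 8 measured genes in anti-DR3 Treg and control antibody Treg, with a circle for replicate 1, a triangle for replicate 2 and a line at the mean. In each panel both anti-DR3 points lie above both control antibody points, with a wide gap for Tap1 and a narrow one for Erap1.

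Promoter windows were taken from RefSeq (GRCm38.p6), from 250 bases before to 50 bases after the annotated start, and were present for 6 of the 9 genes: H2-K1, H2-D1, B2m, Tap1, Tapbp and Erap1. Those of Tap1, H2-K1, B2m and Erap1 are shown because they span the range of differences, and because they carry, or in the case of Tap1 lack, the letter patterns searched. The patterns were those of the interferon-stimulated response element (ISRE, GAAA, any 2 bases, GAAA), of an NF-kappaB site (GGG, 2 bases, TT, 1 base, CC) and of the X2 and Y boxes of the class I enhanceosome (TGACG, then 10 to 30 bases, then ATTGG), each on both strands. Their spacing was settled with the windows in view. Capitals mark the matches, and in Tap1 the letters TGACG and, on the other strand, ATTGG.
Tap1, chr17:34187306-34187605, plus strand: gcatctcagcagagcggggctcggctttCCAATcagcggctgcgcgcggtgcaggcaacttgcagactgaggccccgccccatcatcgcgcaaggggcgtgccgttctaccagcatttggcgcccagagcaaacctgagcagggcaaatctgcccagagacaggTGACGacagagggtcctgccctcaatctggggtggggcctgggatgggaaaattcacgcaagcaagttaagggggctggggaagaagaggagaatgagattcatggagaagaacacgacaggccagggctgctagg
H2-K1, chr17:34000298-34000597, minus strand: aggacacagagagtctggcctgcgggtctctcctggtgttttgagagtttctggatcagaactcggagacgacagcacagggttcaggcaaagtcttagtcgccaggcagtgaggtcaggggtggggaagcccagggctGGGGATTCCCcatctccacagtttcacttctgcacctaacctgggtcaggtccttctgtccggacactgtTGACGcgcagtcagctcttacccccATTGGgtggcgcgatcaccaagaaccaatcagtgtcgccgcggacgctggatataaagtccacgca
B2m, chr2:122147437-122147736, plus strand: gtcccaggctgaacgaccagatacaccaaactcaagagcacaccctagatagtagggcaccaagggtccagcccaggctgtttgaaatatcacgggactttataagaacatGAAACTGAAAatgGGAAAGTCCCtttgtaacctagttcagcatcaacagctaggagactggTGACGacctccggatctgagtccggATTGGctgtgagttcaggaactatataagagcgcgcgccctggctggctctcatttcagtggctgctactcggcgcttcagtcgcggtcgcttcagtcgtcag
Erap1, chr13:74639603-74639902, plus strand: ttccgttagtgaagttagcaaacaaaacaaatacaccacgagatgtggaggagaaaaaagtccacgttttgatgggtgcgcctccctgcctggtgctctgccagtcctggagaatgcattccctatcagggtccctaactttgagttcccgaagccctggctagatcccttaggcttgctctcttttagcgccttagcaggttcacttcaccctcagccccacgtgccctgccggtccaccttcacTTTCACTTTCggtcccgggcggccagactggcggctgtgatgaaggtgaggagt

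The paired X2 and Y letters were found in 3 of the 6 windows, those of H2-K1, H2-D1 and B2m, against 0.799% of the first windows of all 27025 genes in the table. The NF-kappaB letters were found in the same 3 windows, against 4.71% of all windows, and the ISRE letters in B2m and Erap1, against 3.49%. Because the spacing was settled with these windows in view, the shares are not a test of enrichment. The windows of H2-K1 and H2-D1 are also alike in sequence, so their matches are not separate observations. In B2m the ISRE match ran from -139 to -130 and the NF-kappaB match from -126 to -117, next to each other and without overlap. In Erap1 the ISRE match lay across the start, from -4 to 6. Tap1 held TGACG at -86 to -82 and the ATTGG letters at -222 to -218 on the other strand, in neither the order nor the spacing searched. TGACG alone stood in 21.0% and ATTGG alone in 37.9% of all windows. A match is a run of letters and not a shown site, and a window without a match is not shown to lack a site. Tap1 and Tapbp held none of the 3 patterns. Whether the patterns bear on the differences was not tested.

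**Figure D2:**
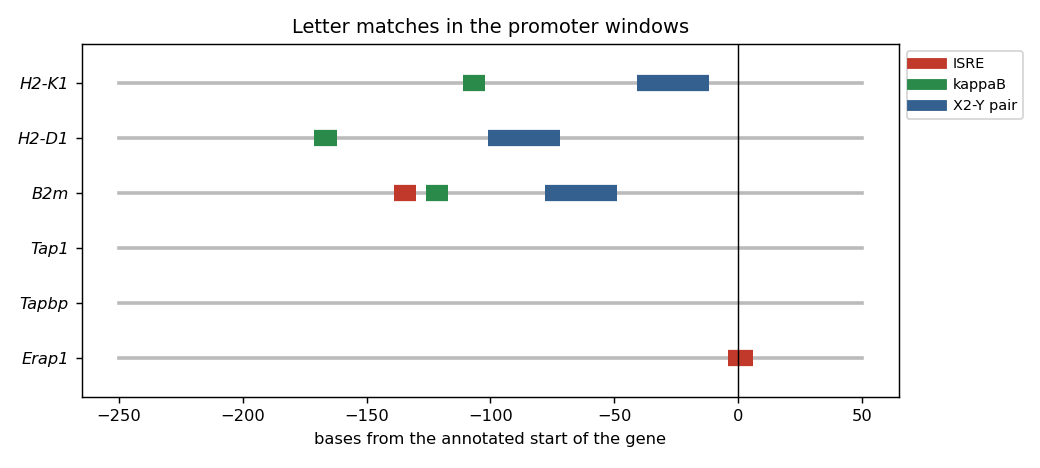
Position of the letter matches (horizontal axis, bases from the annotated start of each gene) in the promoter windows of 6 genes, with ISRE letters in red, NF-kappaB letters in green and the X2 and Y pair in blue. H2-K1, H2-D1 and B2m carry the pair and the NF-kappaB letters, B2m and Erap1 the ISRE letters, and Tap1 and Tapbp none of the 3.

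Tap1 and Tap2 encode the subunits of the peptide transporter. Tap1 had intensities of 918 and 955 in anti-DR3 Treg, against 655 and 700.5 in control antibody Treg. The groups did not overlap, and the lowest anti-DR3 array stood well clear of the highest control array. Leaving out an array ended the call in limma each time. With anti-DR3 replicate 1 left out the adjusted p was 0.139, and with anti-DR3 replicate 2 left out 0.203. With control antibody replicate 1 left out it was 0.116, and for control antibody replicate 2 it was 0.0703. The difference itself stayed between 0.42 and 0.52 in those 4 fits. With the replicate number as a block Tap1 did not pass in limma (adjusted p = 0.05005).

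Tap2 had intensities of 112 and 136 in anti-DR3 Treg, against 87.7 and 103 in control antibody Treg. The groups did not overlap, but the gap between the nearest arrays was smaller than the gap within either group. The difference was 0.38 ± 0.13 (SE, n = 2 arrays per group, 95% interval 0.06 to 0.69, limma adjusted p = 0.140). This was the widest error of the 8 genes, and the interval also holds the difference of Tap1. With anti-DR3 replicate 2 left out the difference of Tap2 was 0.24.

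Tapbp encodes tapasin, which holds empty class I molecules at the transporter. Its intensities were 1045 and 939 in anti-DR3 Treg, against 773 and 693 in control antibody Treg, and the groups did not overlap. The difference of 0.44 ± 0.10 (SE, n = 2 arrays per group) missed the threshold in limma (95% interval 0.19 to 0.68, adjusted p = 0.0625). A dimmer probe set of Tapbp alone gave 87.6 and 97.7 in anti-DR3 Treg, against 77.0 and 81.5 in control antibody Treg, a difference of 0.22 in the same direction. A probe set annotated to both Tapbp and Zbtb22 gave -0.08 and is assigned to neither gene.

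Tapbpl encodes TAPBPR, a tapasin relative that edits the peptides of class I molecules outside the loading complex. Its intensities were 214 and 240.0 in anti-DR3 Treg, against 174 and 187 in control antibody Treg. The groups did not overlap, and the difference was 0.33 ± 0.095 (SE, n = 2 arrays per group, 95% interval 0.10 to 0.56, limma adjusted p = 0.0992).

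H2-K1 encodes the heavy chain of a classical class I molecule. Its intensities were 2164 and 2194 in anti-DR3 Treg, against 1863 and 1996 in control antibody Treg. The groups did not overlap, with the anti-DR3 arrays close together and the control arrays wider apart. The difference was 0.18 ± 0.082 (SE, n = 2 arrays per group, limma adjusted p = 0.241), with a 95% interval of -0.02 to 0.38. Class I heavy chain genes are alike in sequence, so signal from other heavy chains at this probe set was not tested. The probe set annotated to both H2-Q2 and H2-D1, assigned to neither gene, gave 177 and 185 in anti-DR3 Treg, against 164 and 157 in control antibody Treg, a difference of 0.17.

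B2m, the light chain gene, had intensities of 8571 and 8751 in anti-DR3 Treg, against 8147 and 7776 in control antibody Treg. The groups did not overlap, and the difference was 0.12 ± 0.079 (SE, n = 2 arrays per group, limma adjusted p = 0.387). Its 95% interval of -0.07 to 0.32 includes 0 and reaches 1.25-fold.

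Erap1, the trimming aminopeptidase of the endoplasmic reticulum, had intensities of 470.1 and 486 in anti-DR3 Treg, against 463 and 433 in control antibody Treg. The groups were separated only narrowly, and the difference was 0.09 ± 0.082 (SE, n = 2 arrays per group, 95% interval -0.11 to 0.30, limma adjusted p = 0.523). It was 0.05 with control antibody replicate 2 left out and 0.14 with control antibody replicate 1 left out.

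Nlrc5, the transactivator, had intensities of 401 and 441 in anti-DR3 Treg, against 357 and 374 in control antibody Treg. The groups did not overlap, and the difference was 0.20 ± 0.088 (SE, n = 2 arrays per group, 95% interval -0.01 to 0.42, limma adjusted p = 0.211). With anti-DR3 replicate 2 left out the difference of Nlrc5 was 0.14. With all arrays Nlrc5 and H2-K1 had differences of like size, neither of them past the threshold.

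**Figure D3:**
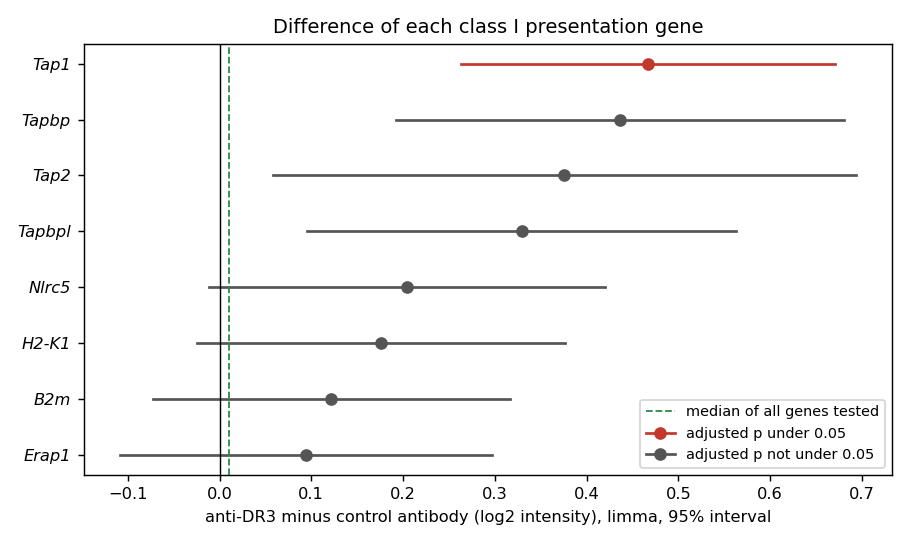
Log2 difference of anti-DR3 minus control antibody for the 8 genes (points) with the 95% interval of limma (lines), in red for the gene past an adjusted p of 0.05 and in grey for the others, and a dashed line at the median of all genes tested. Tap1, Tapbp, Tap2 and Tapbpl have intervals above 0, and those of Nlrc5, H2-K1, B2m and Erap1 include 0.

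To set the members against one another, the log2 value of B2m was subtracted from that of each gene on the same array, a comparison chosen after the values above had been seen. The groups then did not overlap, with anti-DR3 higher, for 3 of 7 genes (Tap1, Tapbp and Tapbpl), where this held for 16.3% of all genes. For H2-K1, Tap2 and Nlrc5 the groups overlapped, and for Erap1 the anti-DR3 arrays were narrowly lower. Relative to B2m, Tap1 differed by 0.35 ± 0.097 (SE, limma adjusted p = 0.0759) and Tapbp by 0.31 ± 0.10 (adjusted p = 0.1002). H2-K1 differed from B2m by 0.05 ± 0.097 (SE, limma adjusted p = 0.718). None of the 7 passed the threshold, where 2.61% of all genes rose by that rule, and 2 of them, Tap1 and Tapbp, lay under an unadjusted p of 0.05, near the background of 30.6% of all genes in that fit. A larger change of the transporter or of tapasin than of the light chain was therefore not established with these arrays.

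The proteasome makes the peptides that the transporter carries. Of 5 genes of the immunoproteasome and its activator PA28, 1 rose and 0 fell, where 4.49% of all genes tested rose. Their median difference was 0.36. Psmb9, a catalytic subunit of the immunoproteasome, had intensities of 267 and 265 in anti-DR3 Treg, against 179 and 196 in control antibody Treg, and rose 1.42-fold (0.51 ± 0.085, SE, n = 2 arrays per group, limma adjusted p = 0.0316). Its partner subunits Psmb8 and Psmb10 had differences of 0.36 (adjusted p = 0.0565) and 0.49 (0.0605), and the PA28 subunit gene Psme1 had 0.34 (0.0789), all in limma and named after their values were seen. The other PA28 gene, Psme2, had -0.14 (adjusted p = 0.507). A brighter probe set lists 3 genes, Psme2 among them, and is assigned to none of them. It gave 381 and 309 in anti-DR3 Treg, against 361 and 435 in control antibody Treg, a difference of -0.21 with overlapping groups. Of the 3 constitutive catalytic subunits that these replace, 0 passed the threshold in limma and 1, Psmb5, lay under an unadjusted p of 0.05 (difference 0.24), while Psmb7 had 0.04 and Psmb6 0.02.

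Psmb9 and Tap1 stand head to head in the RefSeq gene order, and their promoter windows share 275 of 300 bases, with 226 bases between the annotated starts. The window of Tap1 shown above is thus nearly that of Psmb9 read from the other strand. Both genes passed the threshold, but whether the shared window bears on this was not tested. Psmb8 and Tap2 follow directly in that order, with differences of 0.36 and 0.38 that did not pass. Further along, H2-Ob, a chain of the class II modulator H2-O, had a difference of -0.57 ± 0.12 (SE, limma adjusted p = 0.0520). On the other side of Psmb9, H2-DMa had 0.37 ± 0.087 (SE, limma adjusted p = 0.0651). H2-Ob and H2-DMa were named after their values were seen. The class II chain gene H2-Ab1 rose by 0.55 ± 0.11 (SE, limma adjusted p = 0.0490), and H2-Aa, which encodes its partner chain, by 0.70 ± 0.12 (adjusted p = 0.0367). H2-Ab1 had intensities of 120 and 98.6 in anti-DR3 Treg, against 74.9 and 73.6 in control antibody Treg. H2-Aa was dimmer, at 78.3 and 69.6 in anti-DR3 Treg, against 50.3 and 41.1 in control antibody Treg. The control array medians were 41.6 and 42.0, and the control values of H2-Aa lie near them. The control values of H2-Ab1 lie higher, as do the anti-DR3 values of both genes. Whether this class II signal came from Treg or from other cells was not tested.

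Among the cytosolic peptidases, which cut or destroy peptides before transport, 1 of 4 tested genes rose and 0 fell. Over all genes tested 4.49% rose. The median difference of the peptidases was -0.01. Blmh, bleomycin hydrolase, had intensities of 169 and 180 in anti-DR3 Treg, against 112 and 123 in control antibody Treg, and rose 1.49-fold (0.57 ± 0.089, SE, n = 2 arrays per group, limma adjusted p = 0.0269). The groups were far apart relative to their spread. The other 3, Npepps, Tpp2 and Lap3, lay between -0.11 and 0.09.

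Of 13 tested non-classical and class I-like genes 1 rose and 0 fell, where 4.49% of all genes tested rose. Their median difference was 0.04. H2-T23, the gene of Qa-1, which presents to NKG2 receptors, had intensities of 399 and 384 in anti-DR3 Treg, against 286 and 291 in control antibody Treg. It rose 1.36-fold (0.44 ± 0.078, SE, n = 2 arrays per group, limma adjusted p = 0.0365), and within each group its arrays differed little. The 13 ranged from -0.16 for H2-T10 to 0.44 for H2-T23, with 9 positive and 4 negative differences, where 52.4% of all genes tested were positive.

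Of the 7 chaperones that fold class I molecules 0 passed in limma (3 of 7 had an unadjusted p under 0.05, against 26.1% of all genes tested), and the median difference was 0.08. Prkcsh, a subunit of glucosidase II, had a difference of 0.32 ± 0.079 (SE, adjusted p = 0.0746) and Pdia3, the disulfide isomerase bound to tapasin, 0.26 ± 0.082 (adjusted p = 0.113). Also among the 3 under an unadjusted p of 0.05 was Hspa5, which was lower and was named after its values were seen. Its difference was -0.20 ± 0.077 (SE, limma adjusted p = 0.175). Of 19 regulators of class I transcription 1 rose and 0 fell, and their median difference was 0.06. Stat2, a signal transducer of type I interferon, had intensities of 184 and 175 in anti-DR3 Treg, against 138 and 130 in control antibody Treg, and rose by 0.42 ± 0.082 (SE, n = 2 arrays per group, limma adjusted p = 0.0449). Over all these lists 4 of 51 tested genes rose, namely Psmb9, Blmh, H2-T23 and Stat2, and 0 fell, against the background of 4.49%. Without any 1 of the 4 arrays limma called 0 of these 51, with 10 to 18 under an unadjusted p of 0.05. With the replicate block H2-T23 (adjusted p = 0.0577) and Stat2 (0.0601) did not pass in limma, nor with quantile normalization (0.0510 and 0.0608). After centring of the arrays Psmb9 (0.0533), H2-T23 (0.0572) and Stat2 (0.0636) did not pass, and Blmh did (0.0427).

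**Figure D4:**
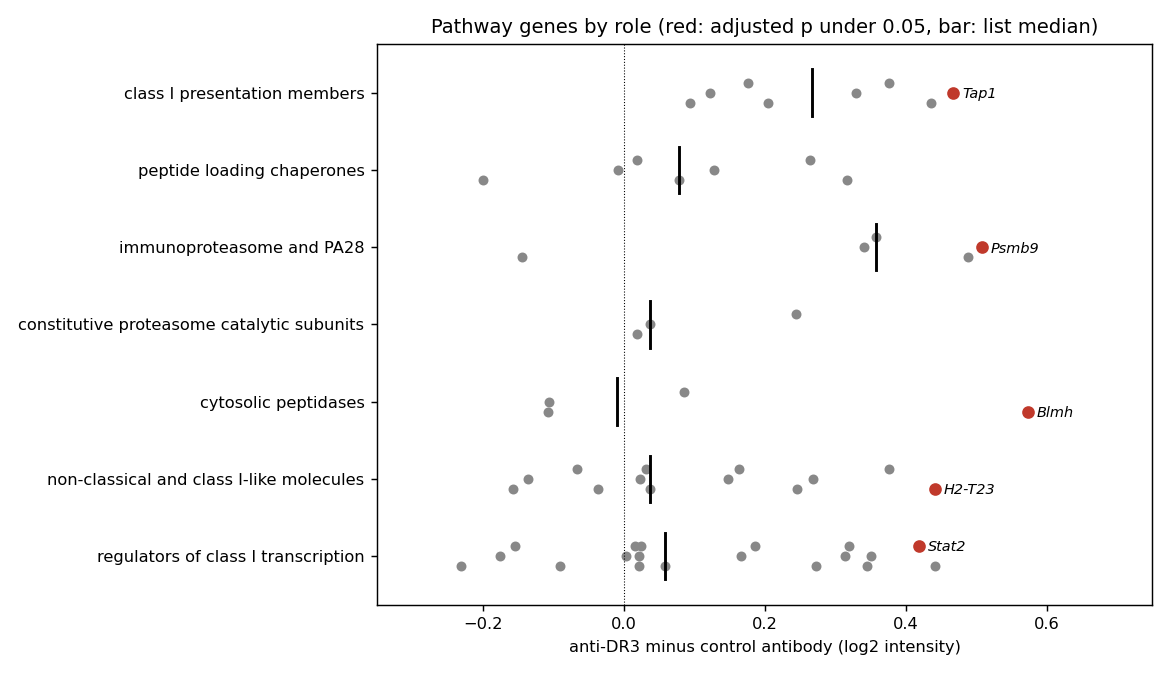
Log2 difference of anti-DR3 minus control antibody (horizontal axis) for each tested gene, with the 8 presentation genes in the top row and 6 lists of pathway genes below, red for an adjusted p under 0.05 in limma and a bar at the median of each row. The medians of the presentation genes (0.27) and of the immunoproteasome row (0.36) lie to the right of the others, which run from -0.01 to 0.08.

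The 5 genes whose values over the 4 arrays, centred on their own mean, lay closest to the median profile of the 8 members were Polg2, Mindy3, Ppp2cb, Dennd1c and Tbc1d14. Their root mean square distances on the log2 scale ran from 0.0089 for Polg2 to 0.013 for Tbc1d14, and their differences from 0.21 to 0.24. With 4 arrays this measures little beyond a difference of that size.

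Arrays correlated at r = 0.992 within anti-DR3, 0.989 within control antibody, and 0.975 to 0.980 between groups over the genes tested. The sorted identity was borne by Foxp3, at 3891 and 3825 in anti-DR3 Treg, against 3805 and 3581 in control antibody Treg, and by Cd3e, at 5391 and 5266 in anti-DR3 Treg, against 5208 and 5274 in control antibody Treg. Of 7 Treg and T cell markers Ikzf2 rose by 0.58 and Il2ra fell by 0.49. Class I genes are active in other leukocytes too, and in sorted bulk RNA a change in the share of such cells cannot be told apart from a change in RNA per cell. Of 7 monocyte and macrophage markers, 4 were tested and all 4 had positive differences, where 52.4% of all genes tested did. Of these, 2 rose (Cybb by 1.05 and Csf1r by 0.42), where 4.49% of all genes tested rose. Itgam (0.47, limma adjusted p = 0.0766) and Lyz2 (0.43, adjusted p = 0.296), named after their values were seen, did not pass. The other 3 were dim (Cd14, Adgre1 and Fcgr1). The summed intensity of the 7 was 683 and 723 in anti-DR3 Treg, against 428 and 457 in control antibody Treg. Most of that gap was Cybb: the other 6 summed to 259 and 295 in anti-DR3 Treg, against 224 and 249 in control antibody Treg. Adgre1 (25.6 and 26.4 in anti-DR3 Treg, against 33.3 and 32.3 in control antibody Treg) and Fcgr1 (29.97 and 29.1 in anti-DR3 Treg, against 36.0 and 37.8 in control antibody Treg) were lower without overlap. Both are dim and were not tested, and 2979 of the 12114 genes tested were also lower without overlap. The CD8 marker Cd8b1 rose by 0.49 while Cd8a was dim, and these summed to 224 and 239.6 in anti-DR3 arrays, against 173 and 168 in control arrays. Of the 6 measured B cell markers, Cd79b the brightest, 4 were dim and 0 passed in limma (0 unadjusted), with sums of 256 and 248 in anti-DR3 arrays, against 245 and 240.1 in control arrays. Of 6 dendritic cell markers, Itgax the brightest, 5 were dim, with sums of 216 and 204 in anti-DR3 arrays, against 215 and 202 in control arrays, and of 4 natural killer markers, Nkg7 the brightest, 2 were dim, with sums of 354 and 311 in anti-DR3 arrays, against 361 and 294 in control arrays. The part of these cells in the class I differences was not tested.

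The calls depended on the settings. All 8 members had a positive difference under each setting tried, where 52.4% of all genes tested had one in the reported fit. Most settings could not change a sign. With groups that did not overlap, leaving out an array keeps it, and a block, another filter or another prior leaves the difference unchanged. Nor could the mean of probe sets for Tapbp, as both of its own probe sets had positive differences. Centring and quantile normalization could have changed a sign, and the 8 stayed positive. After a shift of each array to a common median over tested genes, the 722 calls over all genes (544 higher, 178 lower) became 591 (348 higher, 243 lower), the adjusted p of Tap1 was 0.0597, and 0 of the 8 members passed in limma (3 had an unadjusted p under 0.05). With a trended robust prior Tap1, Tapbp and Tapbpl passed, Tap1 at an adjusted p of 0.00402.

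**Figure D5:**
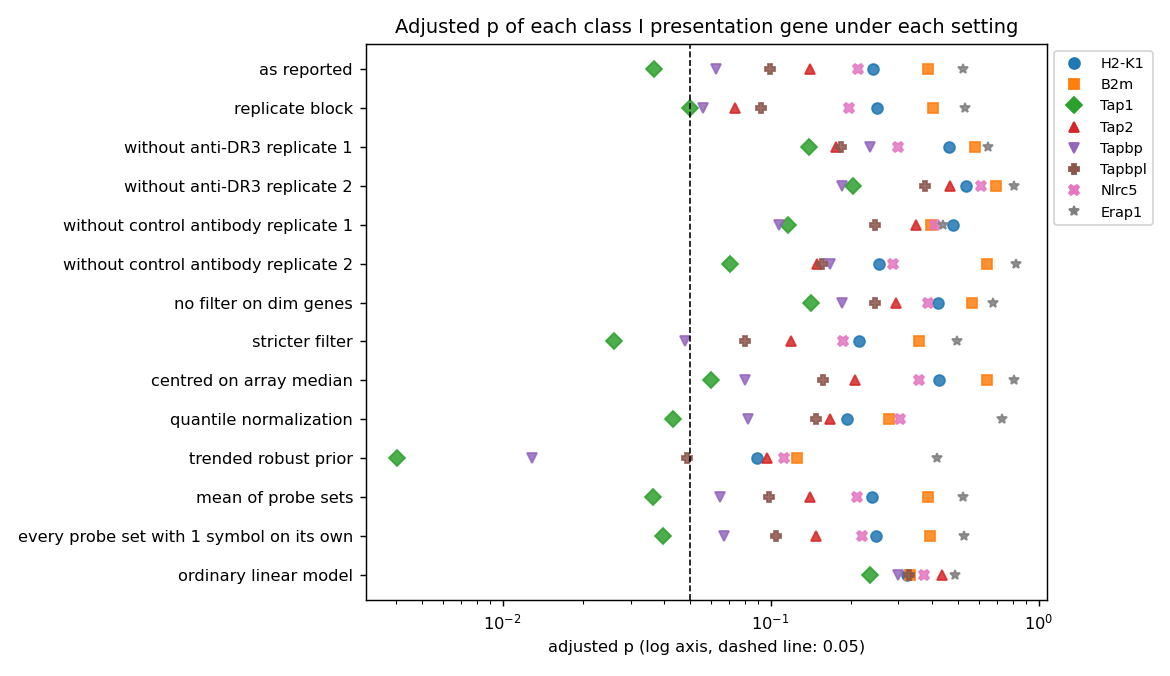
Adjusted p (horizontal log axis, dashed line at 0.05) of each of the 8 genes under the reported fit (top row) and 13 other settings, with a symbol for each gene. Tap1 lies left of the line in the reported fit and in 5 of the 13 other settings, Tapbp in 2, Tapbpl in 1 and the other genes in 0.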

How the data were processed

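Sorted Treg RNA of 4 mouse samples was measured on Affymetrix whole-transcript arrays. The authors deposited 1 linear intensity for each probe set, made with RMA per the submitters' processing notes. The software and its version, and the build, were not given in the sources used here. RMA corrects background, normalizes between arrays and summarises probes, which can hide a shift shared by all genes. For arrays, their number limits the precision. Of 41345 probe sets 23521 had 1 symbol, 1814 several and 16010 none listed. Values were taken to log2. Genes whose brightest probe set exceeded the array median on at least 2 arrays were tested.

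Differences were fitted in R 4.3.3 with limma 3.58.1 (two-sided, moderated by eBayes; 2 residual and 3.94 prior degrees of freedom), adjusted by Benjamini-Hochberg over all genes tested. An exact permutation test of 2 arrays against 2 cannot go below p = 0.333. The code was tested on simulated data. By rule the pathway genes named were those past the threshold, or else the 2 with the largest statistic of a list. Other pathway genes named (Psmb6, Psme2, Npepps, Tpp2, Lap3, H2-T10 and those the text marks) were chosen after their values were seen. The 5 genes likest the members, and of each marker list those past the threshold and the brightest, were named too. Of the 67 listed pathway genes 11, and the red cell markers, had no probe set of their own and are not analysed here. Members, lists and tests were chosen with earlier results of these data known. Figures were drawn with matplotlib 3.10.9.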

Additional observations from a re-analysis of the deposited data

How the results depend on the processing

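Over the 8 members and 13 settings, 93 differences stayed on their side of the threshold with the same sign, 8 lost the call (all of Tap1), 3 gained one (Tapbp under the stricter filter and under the trended robust prior, Tapbpl under the latter) and 0 turned direction. Most of these settings could not turn a direction, as set out above. The differences of Tap1 ran from 0.41 to 0.52 and its adjusted p from 0.00402 to 0.236. Leaving out 1 array, which leaves 1 residual degree of freedom and takes the lone array to vary like the other group, gave in limma 0 members (2 to 4 under an unadjusted p of 0.05), 0 listed pathway genes and 0 to 312 of all genes, the 0 coming without anti-DR3 replicate 2 (1967 unadjusted). With no filter on dim genes limma called 0 members (4 unadjusted), 0 listed genes (18) and 14 of all genes. Genes above the median on all 4 arrays gave 2 members and 8 listed genes. Centring gave 0 members and 1 listed gene, quantile normalization 2 listed genes, and the trended robust prior 3, 15 and 1444. The ordinary linear model gave 0 members (1 unadjusted), 0 listed genes (18) and 0 of all genes (2087). An adjusted p under 0.10 gave 3 members, 12 listed genes and 1689 of all. Why the counts moved was not tested. What same-numbered replicates share is not stated in the labels, and with 2 pairs (correlation of deviations 0.051 across genes) the data cannot show it. The replicate block gave 0 members in limma (4 unadjusted), 2 listed genes and 563 of all genes.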

Other observations

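Several class I probe sets list more than 1 gene, and their values belong to no single one. The set listing H2-T22 and H2-T9 gave 648 and 706 in anti-DR3 Treg, against 588 and 563 in control antibody Treg, a difference of 0.23 with groups that did not overlap. The set listing H2-Q6 and H2-Q8 gave 2059.6 and 2305 in anti-DR3 Treg, against 1726 and 2129 in control antibody Treg, with overlapping groups, and the brighter set of H2-Q7, H2-Q8 and H2-Q9 gave 4621 and 4696 in anti-DR3 Treg, against 4244 and 4668 in control antibody Treg, again with overlap. The 2 probe sets of H2-Q10 had unequal differences, -0.04 at the brighter and -0.35 at the dimmer, where the anti-DR3 arrays lay below the controls. None of these sets with several symbols was tested.

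Mr1, which presents vitamin metabolites to mucosal-associated T cells, had intensities of 265 and 277 in anti-DR3 Treg, against 216 and 202 in control antibody Treg, a difference of 0.38 ± 0.083 (SE, n = 2 arrays per group, limma adjusted p = 0.0584). Ezh2, the histone methyltransferase of Polycomb, had 0.44 ± 0.10 (adjusted p = 0.0640, limma), and the interferon regulators Irf1, Irf2 and Irf9 had 0.35, 0.34 and 0.31 (adjusted p = 0.103, 0.107 and 0.0874, limma). These genes were named after their values were seen, and none passed the threshold. Of the 19 tested regulators of class I transcription, Ezh2 and the Irf genes among them, 15 had positive differences and 4 negative ones. Over all genes tested 52.4% were positive. The 4 were Ifngr2 (-0.23), Jak1 (-0.18), Nfya (-0.16) and Rela (-0.09), also named after their values were seen and not past the threshold.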
